A study of Mus musculus with 26 samples.

Results

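The CCN family of matricellular genes was followed through mouse left ventricles that carried Mst-1 overexpression, a galectin-3 knockout, both or neither. Members were taken by symbol: the counted genes named Ctgf, Cyr61, Nov, Wisp1 and Wisp2 (now also called Ccn2, Ccn1, Ccn3, Ccn4 and Ccn5), which are 5 of the 15249 genes measured. The other known member, Wisp3, was not analysed here. RNA-seq read counts were available for 26 libraries of left ventricle from C57BL6 mice kept under standard housing with no treatment. The groups were wild type (wt, n = 6), Mst-1 overexpressing (MstTg, n = 7), galectin-3 knockout (Gal3Ko, n = 8) and Mst-1 overexpressing with galectin-3 knockout (Mst1Gal3, n = 5). The Mst-1 overexpressing mouse serves to model dilated cardiomyopathy, and the series asks what loss of galectin-3 does in the normal and the failing heart. Age, sex, the promoter that drives the Mst-1 transgene and the knockout allele were not stated in the labels. The labels call the libraries replicates without stating that each is a separate animal. The p-values below therefore judge differences against the spread between these libraries, which may not be the spread between animals.

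CCN proteins are secreted into the extracellular matrix and signal there rather than build it. They share an IGF-binding-protein-like module, a von Willebrand factor C module, a thrombospondin module and a C-terminal cysteine knot, which Wisp2 lacks, and they act by binding integrins, LRP1, heparan sulfate and growth factors such as TGF-beta and VEGF. Ctgf and Cyr61 are textbook transcriptional targets of YAP/TAZ with TEAD factors and also respond to TGF-beta and to serum response factor. Mst-1, encoded by Stk4, is a kinase of the Hippo cascade, which restrains YAP and TAZ. In the heart Ctgf and Wisp1 are known for their association with fibroblasts and scar formation, and Nov is often described as opposing Ctgf.

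Library totals were 18580405 to 32663735 counts. Stk4 had 388 to 718 counts in the 14 libraries without the transgene and 19919 to 31877 in the 12 with it. Lgals3, which encodes galectin-3, had 1126 to 1791 counts in MstTg and 64 to 151 in Mst1Gal3, but without the transgene it was low in both groups, with 19 to 49 counts in wt and 22 to 64 in Gal3Ko, so the counts do not check the Gal3Ko label there. Mitochondrial transcripts took 26.8% to 38.3% of the counts in wt and Gal3Ko and 14.4% to 23.4% in MstTg and Mst1Gal3. Cardiomyocyte markers (Myh6, Actn2, Ryr2, Tnnt2, Tnni3 and Pln) were the most abundant of the marker lists, and summed to 35930 to 41880 CPM (counts relative to the scaled library total) in wt, 26070 to 34670 in MstTg, 40360 to 48210 in Gal3Ko and 32020 to 40170 in Mst1Gal3. In 6 libraries the atrial genes Myl7, Myl4 and Sln summed to more than 30 CPM (33.1 to 126.6, against 1.19 to 21.1 in the others): wt replicate 5, Gal3Ko replicates 4, 5 and 8, MstTg replicate 5 and Mst1Gal3 replicate 3. Values without these 6 libraries are given for Wisp1 and for the gene lists. In bulk tissue, fewer cells of a type and less RNA per cell cannot be told apart.

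Between wt and MstTg, 4 of the 5 members rose: Wisp1 11.1-fold, Ctgf 8.24-fold, Wisp2 4.37-fold and Cyr61 2.36-fold, while Nov did not pass the test. The fraction of all genes called higher in this comparison was 28.2% (26.8% lower, 55% in either direction), so a call by itself was common here. The same 4 members rose, and Nov again did not pass (0.27, adjusted p = 0.519), when Mst-1 was overexpressed in the galectin-3 knockout (Mst1Gal3 against Gal3Ko), where 26.9% of all genes were called higher and 25.6% lower (52.5% in all). Galectin-3 knockout alone changed none of the 5 at an adjusted p of 0.05. Within the Mst-1 background, 1 member differed between the galectin-3 genotypes: Wisp1 was lower in Mst1Gal3 than in MstTg. Scaling by library totals alone moved the median log2 change of all genes between wt and MstTg from 0.02 to 0.27, and the 4 members rose by 1.48 to 3.72 on that scale, above the shift. Adjusted p-values are from edgeR's quasi-likelihood test with all 26 libraries in 1 fit and Benjamini-Hochberg adjustment over 15249 genes.

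**Figure D1:**
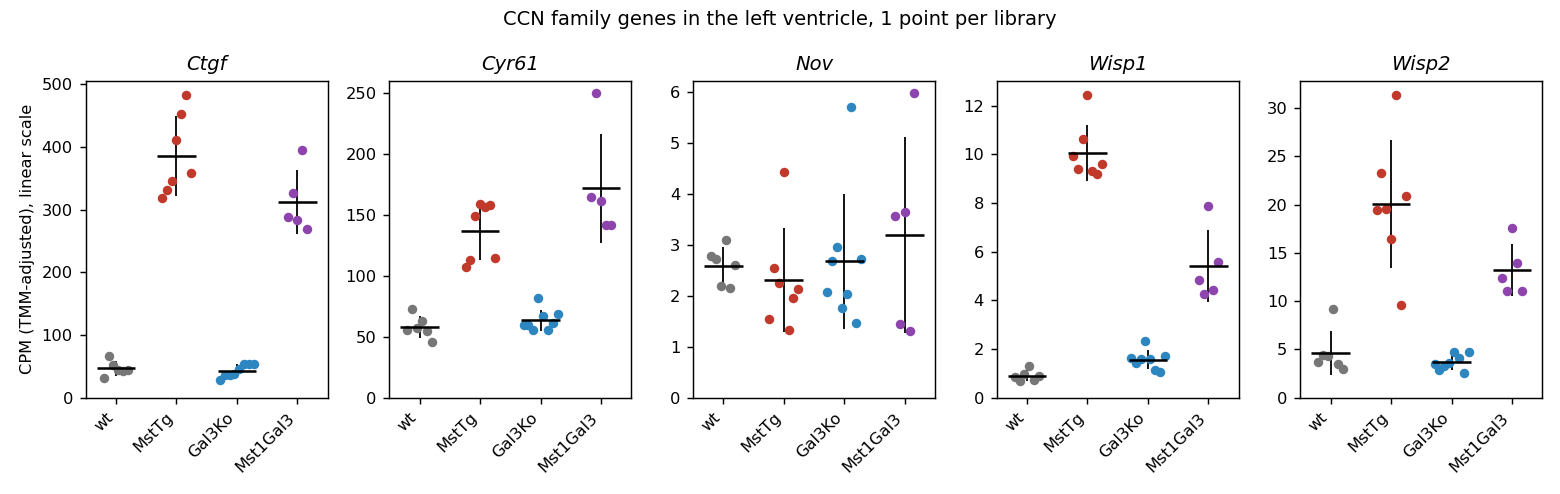
Level of each CCN gene in every library (CPM scaled by TMM, linear axes from 0) by group, with 1 point per library, a horizontal line at the group mean and a vertical line of 1 SD on either side. Ctgf, Cyr61, Wisp1 and Wisp2 separate the hearts with the Mst-1 transgene from those without it, Nov does not, and the 5 Mst1Gal3 points of Wisp1 lie below all 7 MstTg points. The share of all genes that separate in this way was not counted, and 55% of all genes were called in MstTg against wt.

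Ctgf, a secreted promoter of matrix production by fibroblasts, lies at chr10:24595442-24598683 on the plus strand (GRCm38) and is annotated with 3 coding transcripts, the longest of which encodes 348 amino acids. In wt its level ran from 30.9 CPM over a median of 44.2 to 66.5, and in Gal3Ko from 27.7 over 41.5 to 53.8. In MstTg it ran from 318 over 359 to 482, and the 5 Mst1Gal3 libraries had 289, 327, 283, 395 and 268.4 CPM. Every library with the transgene exceeded every library without it, and within each genotype of Mst-1 the galectin-3 groups overlapped. How common such a separation is over all genes was not counted, here or for the other members.

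The group means of Ctgf were 46.8 ± 11.9 CPM (SD, n = 6) in wt, 385 ± 63.7 (n = 7) in MstTg, 42.9 ± 10.005 (n = 8) in Gal3Ko and 312 ± 50.8 (n = 5) in Mst1Gal3. The log2 fold change of MstTg over wt was 3.04 ± 0.18 (SE), adjusted p = 8.88e-14 by edgeR, and the 95% interval of the fold was 6.40 to 10.6. In the galectin-3 knockout the Mst-1 difference was 2.86 ± 0.16 on the log2 scale, adjusted p = 9.58e-14 by edgeR. The difference between these responses was not detectable (interaction -0.18 on the log2 scale, adjusted p = 0.802). Ctgf was 0.30 lower on the log2 scale in Mst1Gal3 than in MstTg with an SE of 0.17 and an adjusted p of 0.348, and the 95% interval of the ratio was 0.638 to 1.03. The antisense gene Gm15270 overlaps Ctgf, and without a stated strand setting their reads cannot be told apart: its counts were 0.833% of those of Ctgf in MstTg and 3.56% in wt.

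Cyr61, the family's angiogenic and pro-adhesive member and a fast-responding gene, lies at chr3:145646976-145649981 on the minus strand, with 1 annotated transcript of 379 amino acids. The 250 bases before its start are shown because it is the family's member with a promoter sequence at hand and because the binding sequence of TEAD factors, through which YAP and TAZ act, falls inside them. The stretch is RefSeq sequence of GRCm38.p6 at chr3:145649986-145650235, minus strand, read 5′ to 3′, and the capitals mark the match to the TEAD sequence, which is GGAATG on the opposite strand.
Cyr61 promoter: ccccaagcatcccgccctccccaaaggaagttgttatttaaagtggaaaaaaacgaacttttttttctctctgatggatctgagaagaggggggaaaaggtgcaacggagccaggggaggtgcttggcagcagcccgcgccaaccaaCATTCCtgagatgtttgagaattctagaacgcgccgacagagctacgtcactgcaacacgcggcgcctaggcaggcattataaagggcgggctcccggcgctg
The match begins 103 bases before the start. Of the 32851 promoter stretches of the same length, 12.6% hold GGAATG on either strand. The SMAD sequence CAGAC (in 42.2% of promoters), the AP-1 sequence TGANTCA (6.75%) and the CArG box of serum response factor (1.47%) had no match on either strand of this window. With 1 match in the window no motif overlapped another, and a match describes these letters only.

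In wt Cyr61 ran from 45.8 CPM over a median of 56.4 to 72.8, and in Gal3Ko from 55.0 over 60.4 to 81.6. In MstTg it ran from 108 over 149 to 159, and the Mst1Gal3 libraries had 165, 249.6, 161, 141 and 142 CPM. All libraries with the transgene again lay above all without it, and 3 of the 5 Mst1Gal3 libraries lay above every MstTg library. Means were 58.1 ± 9.06 CPM (SD, n = 6) in wt, 137 ± 23.7 (n = 7) in MstTg, 63.5 ± 8.78 (n = 8) in Gal3Ko and 172 ± 44.9 (n = 5) in Mst1Gal3. Cyr61 rose by 1.24 ± 0.14 (SE) on the log2 scale from wt to MstTg, adjusted p = 1.28e-08 by edgeR, and by 1.43 ± 0.13 from Gal3Ko to Mst1Gal3, adjusted p = 6.15e-10. Its 0.33 ± 0.14 higher level in Mst1Gal3 than in MstTg did not pass (adjusted p = 0.187, interval of the ratio 1.03 to 1.53), and neither did the interaction (0.20, adjusted p = 0.715).

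Wisp1, a WNT1-inducible member linked to fibroblast proliferation and collagen handling, lies at chr15:66891320-66923201 on the plus strand, with 6 annotated transcripts of which 2 are coding. Its counts were low outside the transgene, 14 to 25 reads per library in wt and 21 to 65 in Gal3Ko, and 103 to 359 with it. In wt it ran from 0.690 CPM over a median of 0.868 to 1.29, and in Gal3Ko from 1.06 over 1.58 to 2.32. In MstTg it ran from 9.17 over 9.59 to 12.4, and the Mst1Gal3 libraries had 4.83, 4.24, 7.87, 4.43 and 5.58 CPM. The 5 Mst1Gal3 values lay between the other transgenic group and the hearts without the transgene and overlapped neither, whereas 6 of the 8 Gal3Ko libraries lay above every wt library and 2 among them.

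Mean Wisp1 was 0.902 ± 0.216 CPM (SD, n = 6) in wt, 10.1 ± 1.15 (n = 7) in MstTg, 1.54 ± 0.391 (n = 8) in Gal3Ko and 5.39 ± 1.48 (n = 5) in Mst1Gal3. With galectin-3 intact, the Mst-1 difference was 3.48 ± 0.17 (SE) on the log2 scale, 11.1-fold with a 95% interval of 8.71 to 14.2 and an adjusted p of 1.74e-17 by edgeR. In the galectin-3 knockout it was 1.79 ± 0.16, 3.45-fold with an interval of 2.76 to 4.32 and an adjusted p of 1.88e-11. Those responses differed: the interaction was -1.69 ± 0.24 on the log2 scale, adjusted p = 0.000261 by edgeR, and Wisp1 ranked 4 among the 15249 genes by the p-value of that test. Of all genes, 0.656% were called in the interaction (0.367% lower and 0.289% higher), and Wisp1 was the 1 member called.

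The Wisp1 interaction combines a lower level in the Mst-1 background with a higher one outside it. In the Mst-1 background Wisp1 was lower by 0.90 ± 0.14 on the log2 scale in Mst1Gal3 than in MstTg (adjusted p = 0.00012 by edgeR, interval of the ratio 0.438 to 0.659), in a comparison where 2.35% of all genes were called lower, 2.54% higher and 4.89% in either direction (746 genes, but 469 without Mst1Gal3 replicate 1). Without the transgene it was 0.79 ± 0.19 higher in Gal3Ko than in wt, with an unadjusted p of 0.000286 and an adjusted p of 0.0705 by edgeR, just outside the threshold, while DESeq2 gave an adjusted p of 0.0211. Without the 6 libraries with atrial genes, the interaction was -1.63 (adjusted p = 0.000603), the difference in the Mst-1 background -1.09 (adjusted p = 5.98e-06), and the difference without the transgene 0.54 (adjusted p = 0.455). MstTg against wt and Gal3Ko against wt share the wt libraries, and the other comparisons share libraries in the same way, so their values are not independent of each other.

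**Figure D2:**
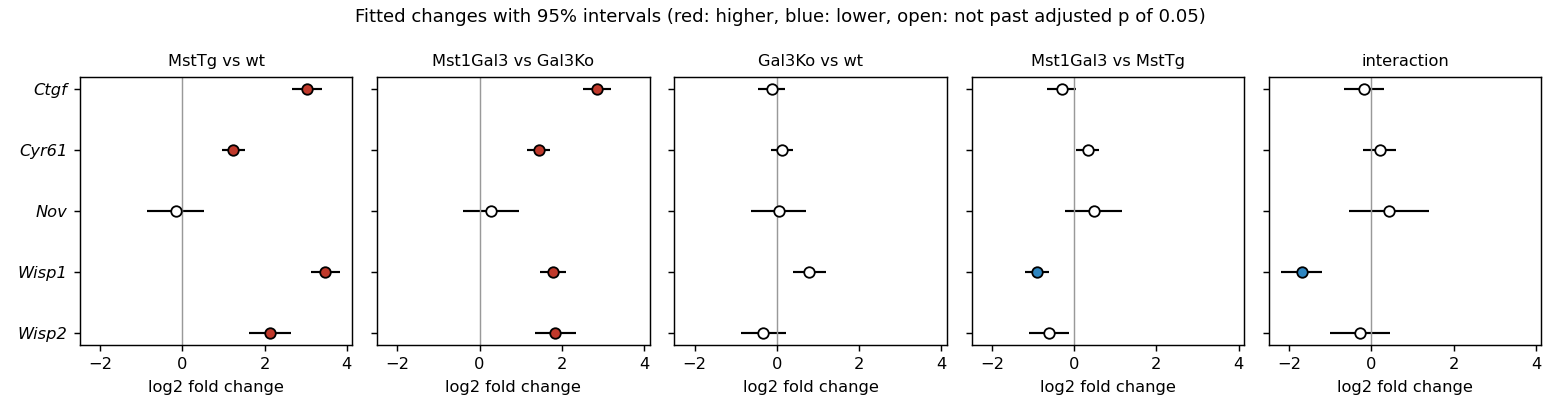
Log2 fold change of each CCN gene in the 4 comparisons and in the interaction of the genotypes, with approximate 95% intervals derived from edgeR's F statistic. Points are filled red (higher) or blue (lower) where the adjusted p was under 0.05 and open otherwise. Those that pass are Ctgf, Cyr61, Wisp1 and Wisp2 in both Mst-1 comparisons, and Wisp1 in Mst1Gal3 against MstTg and in the interaction.

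Wisp2, the short member with 251 amino acids and no C-terminal cysteine knot, lies at chr2:163820861-163833146 on the plus strand, 237.2 kb from Stk4 on the same chromosome. In wt it ran from 2.94 CPM over a median of 3.98 to 9.18, and in Gal3Ko from 2.56 over 3.50 to 4.77. In MstTg it ran from 9.62 over 19.5 to 31.4, and the Mst1Gal3 libraries had 12.4, 11.1, 17.5, 14.0 and 11.04 CPM. The lowest MstTg library was barely above the highest wt library, and all 5 Mst1Gal3 values fell inside the wide MstTg range.

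Mean Wisp2 was 4.66 ± 2.28 CPM (SD, n = 6) in wt, 20.1 ± 6.60 (n = 7) in MstTg, 3.66 ± 0.818 (n = 8) in Gal3Ko and 13.2 ± 2.70 (n = 5) in Mst1Gal3. It rose by 2.13 ± 0.25 (SE) on the log2 scale from wt to MstTg, adjusted p = 5e-08 by edgeR, and by 1.85 ± 0.24 from Gal3Ko to Mst1Gal3, adjusted p = 5.6e-07. In Mst1Gal3 it was 0.61 ± 0.23 lower than in MstTg on the log2 scale, which did not pass (adjusted p = 0.148, interval of the ratio 0.47 to 0.918), and without MstTg replicate 6 it did (-0.73, adjusted p = 0.0436). The interaction was -0.28, adjusted p = 0.792.

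Nov, whose product often acts against Ctgf, lies at chr15:54745702-54754039 on the plus strand, on the same chromosome as Wisp1, with 1 annotated transcript of 354 amino acids. In wt it ran from 2.15 CPM over a median of 2.65 to 3.10, in MstTg from 1.32 over 2.13 to 4.43, and in Gal3Ko from 1.46 over 2.37 to 5.69. The Mst1Gal3 libraries had 3.57, 1.44, 3.63, 1.31 and 5.97 CPM. All groups overlapped. The coefficient of variation was 14.1% in wt, 44.3% in MstTg, 49.7% in Gal3Ko and 60.2% in Mst1Gal3, a difference in spread that was not tested. By Dixon's criterion 1 library lay apart in MstTg (replicate 4, 4.43 CPM) and 1 in Gal3Ko (replicate 6, 5.69 CPM), and these enter the coefficients. Nov was -0.16 ± 0.33 on the log2 scale in MstTg against wt (adjusted p = 0.72 by edgeR, interval of the ratio 0.556 to 1.45) and 0.0931 with library totals (adjusted p = 0.823), and its interval in Gal3Ko against wt was 0.647 to 1.65. The fold changes of Cyr61, Wisp2, Ctgf and Wisp1 between wt and MstTg lie outside the Nov interval, but a difference between genes was not tested.

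In Gal3Ko against wt, edgeR called 0 of the 5 members, with 1 (Wisp1) at an unadjusted p under 0.05, DESeq2 called 1 (Wisp1) and limma-voom 0, while 0.354% of all genes were called by edgeR, 0.177% in each direction. The intervals of the Gal3Ko to wt ratio were 0.729 to 1.16 for Ctgf, 0.906 to 1.32 for Cyr61, 1.31 to 2.29 for Wisp1 and 0.549 to 1.16 for Wisp2. Arranged by level, Ctgf ran Gal3Ko, wt, Mst1Gal3, MstTg, Cyr61 ran wt, Gal3Ko, MstTg, Mst1Gal3, and Wisp2 ran as Ctgf did. In each of these orders only the middle step, from the hearts without the transgene to those with it, passed the test. For Wisp1 the order was wt, Gal3Ko, Mst1Gal3, MstTg, in which the last 2 steps passed and the first did not, and for Nov no step of MstTg, wt, Gal3Ko, Mst1Gal3 passed. Between the ends not yet compared, Mst1Gal3 against wt and MstTg against Gal3Ko, the same 4 members were higher, in the first of which 25.1% of all genes were higher and 23.5% lower (48.6% in all), and in the second 29.7% higher and 29.1% lower (58.8% in all).

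Levels of different members were compared per length, as RPKM, which is the CPM divided by the exon length in kilobases. The family's summed RPKM was 48.6 ± 8.31 in wt, 215.5 ± 31.98 in MstTg, 49.5 ± 5.85 in Gal3Ko and 203 ± 28.1 in Mst1Gal3 (SD). Cyr61 was the most abundant member without the transgene, with 59.4% ± 3.94 of the family's RPKM in wt and 63.6% in Gal3Ko, and Ctgf came next with 33.4% ± 4.88 and 30.1%. With the transgene their order turned: in MstTg Ctgf took 62.4% ± 2.51 and Cyr61 31.4% ± 2.33, and in Mst1Gal3 they took 53.9% ± 6.21 and 41.6% ± 6.46. Wisp1 stayed under 1% in each group mean, from 0.340% in wt to 0.854% in MstTg, so the member with the largest fold change was a minor part of the family's RNA.

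The ratio of Ctgf to Cyr61 per length was 0.569 ± 0.113 in wt and 0.483 ± 0.126 in Gal3Ko. It was 2.001 ± 0.202 in MstTg, where the libraries ran from 1.63 to 2.20, and 1.34 ± 0.384 in Mst1Gal3, where they ran from 0.924 to 1.97. Ratios in MstTg and Mst1Gal3 thus overlapped, and neither transgenic group overlapped the hearts without the transgene, whose highest ratio was 0.689.

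**Figure D3:**
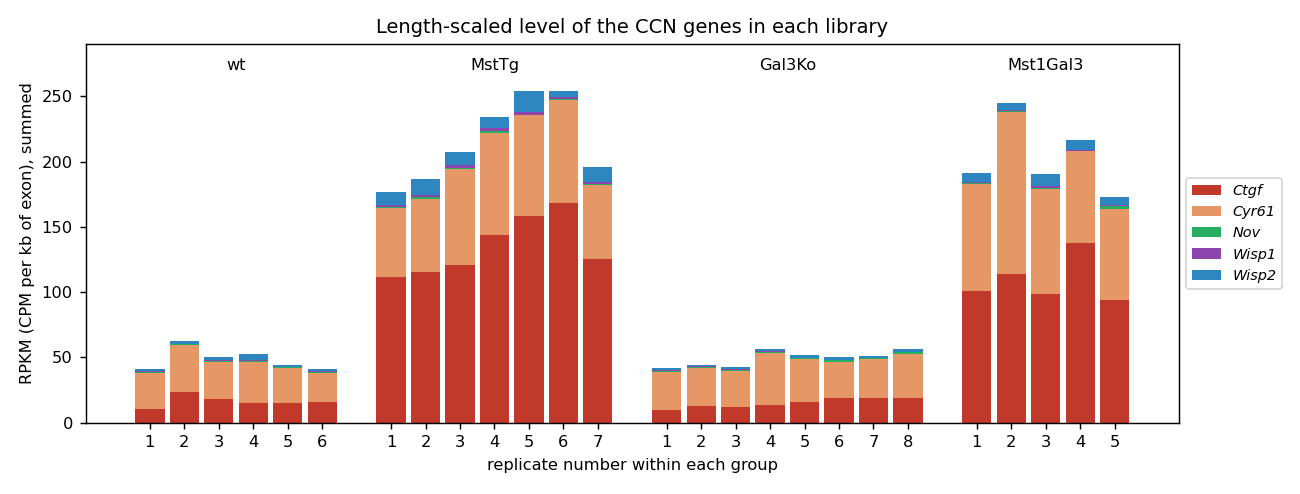
RPKM of the CCN genes stacked in 1 bar per library from 0, with the libraries ordered by group and replicate number. The bars of MstTg and Mst1Gal3 are several times as high as those of wt and Gal3Ko, Cyr61 is the main part in wt (59.4% on average) and Ctgf in MstTg (62.4%), and Nov, Wisp1 and Wisp2 form a thin band.

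Markers of several cell types moved with the transgene too. In MstTg against wt 28.2% of all genes were called higher and 26.8% lower. The sum of 8 fibroblast markers (Pdgfra, Tcf21, Dcn, Lum, Col1a1, Gsn, Mfap5 and Dpt) was 1292 to 1856 CPM in wt, 2943 to 3888 in MstTg, 1252 to 1609 in Gal3Ko and 3148 to 3405 in Mst1Gal3, and 8 of the 8 were called higher in MstTg than in wt. Of 5 markers of activated fibroblasts, Postn, Meox1, Fap and Acta2 were measured, and their sum was 71.9 to 148 CPM in wt, 476 to 629 in MstTg, 73.3 to 154 in Gal3Ko and 286 to 479 in Mst1Gal3. In MstTg against wt 2 of the 4 were called higher, Postn (3.32) and Meox1 (2.62), while Acta2 (0.37, adjusted p = 0.212) and Fap (-0.12, adjusted p = 0.527) did not pass.

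Between wt and MstTg 5 of 6 cardiomyocyte markers, 5 of 6 endothelial markers and 3 of 4 measured mesothelial markers were called lower, beside 26.8% of all genes. The endothelial sum was 701 to 853 CPM in wt and 499 to 619 in MstTg, with no overlap, and the cardiomyocyte sums did not overlap either. Of 6 macrophage markers 1 was called higher and 0 lower, of 6 smooth muscle and pericyte markers 2 higher and 1 lower, and of 3 measured Schwann cell markers 1 lower. The part of these cells in the family's changes was not tested.

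Set against the fibroblast markers, the members went different ways. Per 1000 CPM of those 8 markers, Ctgf was 31.6 CPM in wt and 113 in MstTg, and Wisp1 0.624 and 2.995, so both rose by more than the markers did. Cyr61 was 39.6 CPM per 1000 in wt and 40.3 in MstTg, so its rise matched that of the sum in size, and Nov was 1.78 and 0.684. Gsn (853 CPM in wt) and Dcn (312) were the largest parts of the sum. The single markers rose unevenly, from 1.42-fold (Dpt) to 6.45-fold (Mfap5). Wisp2 was 3.145 in wt (2.23 to 5.85) and 5.95 in MstTg (2.65 to 8.07), ranges that overlap. In Mst1Gal3 the fibroblast sum lay inside the MstTg range, while Wisp1 per 1000 CPM of markers was 1.66 (1.30 to 2.44) against 2.995 (2.39 to 3.48) in MstTg, ranges that meet at their ends. Between MstTg and Mst1Gal3, 1 of the 8 fibroblast markers was called, Mfap5 (-0.64, adjusted p = 0.00224), and the list's median was -0.01, with Pdgfra (0.23, adjusted p = 0.0604) and Lum (0.29, adjusted p = 0.117) on the other side of 0. Of the 4 activated-fibroblast markers 1 was called, Postn (-0.76, adjusted p = 0.00593), while Acta2 was 0.50 (adjusted p = 0.297). The sum of these 4 was lower in Mst1Gal3 (286 to 479 CPM) than in most MstTg libraries (476 to 629). Wisp1 was not scaled to that sum, so whether it fell by more than these markers was not tested. Of the 6 cardiomyocyte markers 2 were called higher in Mst1Gal3, Myh6 (0.41) and Ryr2 (0.22), and 4 did not pass. In this comparison 2.54% of all genes were called higher and 2.35% lower.

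**Figure D4:**
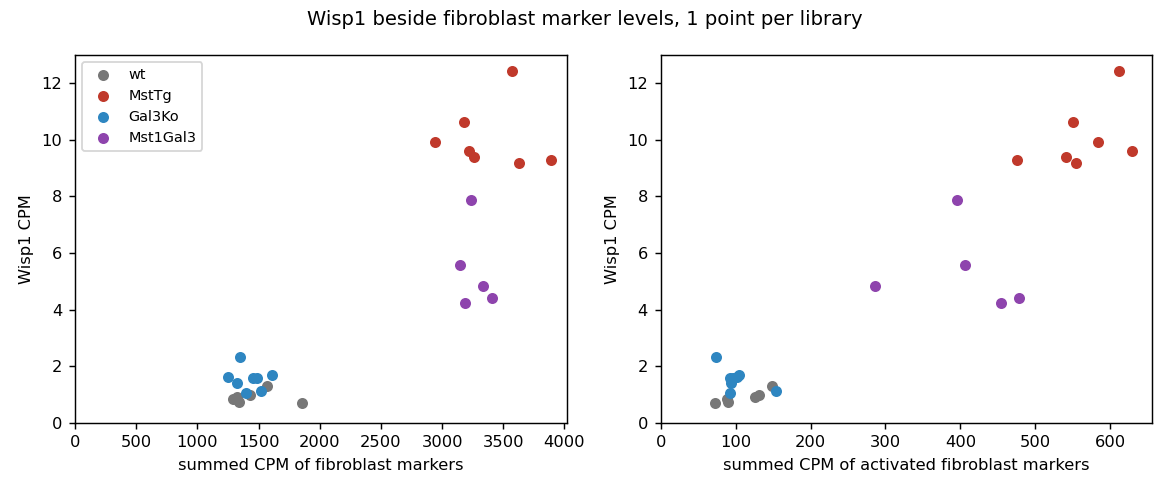
Wisp1 (CPM) against the summed level of 8 fibroblast markers and against that of 4 activated-fibroblast markers (CPM), with 1 point per library coloured by group. MstTg and Mst1Gal3 overlap along the fibroblast axis and separate along the Wisp1 axis, and the Mst1Gal3 libraries are lower than most MstTg libraries on the activated-fibroblast axis.

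The family's surroundings were described with 7 lists of genes from its pathway, which hold 86 measured genes. Between wt and MstTg 52 of the 86 were called higher and 13 lower, beside 28.2% and 26.8% of all genes. The same shares stand beside the counts of each list below. The median log2 fold change of the 86 was 0.47 against 0.02 over all genes. With library totals 67 were higher and 6 lower, where 9955 of all genes were called and the median of all genes was 0.27. On that scale Smad3, Tead3 and Smoc2 changed sign, and Tead1, Notch1, Gja1 and Gadd45a were no longer called lower. Without the 6 libraries with atrial genes 53 were higher and 12 lower: Egr1 (1.09) was then called, and Tead3 (adjusted p = 0.0561) was not. Among 15 inducers, 9 rose and 2 fell: the TGF-beta ligands Tgfb2 (1.94) and Tgfb3 (1.65) and the receptors Tgfbr1 (1.13) and Tgfbr2 (0.69) rose, while Agt, the angiotensin precursor (-1.23), and the TGF-beta mediator Smad3 (-0.20, but 0.05 with library totals) fell. Of 9 YAP/TAZ cofactors and TEAD factors, 5 rose and 2 fell, with Wwtr1, which encodes TAZ, at 0.38, Yap1 at 0.28 and Tead1 at -0.32. Their sizes were small beside Vgll2, a TEAD cofactor of muscle, at 2.66.

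Known YAP/TEAD targets outside the family were mixed: 10 of 19 rose and 4 fell, beside 28.2% and 26.8% of all genes, with a median of 0.27. Tgfb2, which is also among the inducers, Ankrd1, a stress-responsive cardiac gene (2.12), Ccdc80 (1.41) and the receptor kinase Axl (1.22) rose, and Dock5 (-0.83), Gadd45a (-0.53), Amotl2 (-0.50) and Crim1 (-0.43) fell. Of 14 receptors and co-receptors 7 rose and 1 fell. The integrin subunits Itga5 (1.54), Itgav (0.88) and Itgb5 (0.97) and the endocytic receptor Lrp1 (1.43) rose, and Notch1 fell by 0.36.

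Of 10 binding partners 7 rose and 2 fell: the proteoglycans Bgn (2.06) and Dcn (1.36), fibronectin Fn1 (1.63) and Bmp4 (1.37) rose, while Vegfa (-0.95) and the connexin Gja1 (-0.29) fell. Other matricellular genes had the highest median of the 7 lists, 1.36, with 12 of 14 higher and 1 lower. Thrombospondin Thbs4 (6.34), periostin Postn (3.32), Thbs3 (1.47) and Sparcl1 (0.58) rose, and Smoc2 fell by 0.22 (0.02 with library totals). Of 7 IGF-binding proteins and IGFs, which share or bind the first CCN module, 3 rose and 1 fell, with Igfbp6 at 2.08, Igfbp7 at 1.58, Igf1 at 0.90 and Igf2 at -0.69.

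Loss of galectin-3 without the transgene called 0 of these 86 genes in edgeR, beside 0.354% of all genes. Of the 86, 6 had an unadjusted p under 0.05 in edgeR, and DESeq2 called 0. In the Mst-1 background 1 of the 86 was higher and 9 were lower in Mst1Gal3 than in MstTg, beside 2.54% and 2.35% of all genes. With library totals 0 were higher and 15 lower, where 694 of all genes were called. The median log2 change of all genes was then -0.06, against 0.02 with TMM. DESeq2 called 1 higher and 11 lower. The matricellular list held 5 of the 9: Thbs4 (-0.84), Postn (-0.76), Sparc (-0.57), Thbs2 (-0.57) and Sparcl1 (-0.32), of 14 measured (7 with library totals). The rest were Tgfbr1 (-0.31, adjusted p = 0.00487), Tead4 (-0.52, adjusted p = 0.0076), Wwtr1 (-0.20, adjusted p = 0.0276) and Igfbp7 (-0.39), and Igfbp4 was the 1 that was higher (0.33). Without the 6 libraries with atrial genes Igfbp7 (adjusted p = 0.0989) and Igfbp4 (adjusted p = 0.0644) were no longer called. Igfbp4 also missed the threshold with library totals (adjusted p = 0.183) and RLE size factors (adjusted p = 0.0581). Without those 6 libraries the count of the matricellular list was again 5. Of the 86, edgeR called Tgfbr1 in the interaction (-0.44 ± 0.09, adjusted p = 0.0191), beside 0.656% of all genes, so 1 call among 86 is little by itself. Its sign was that of Wisp1, and DESeq2 also called Dock5, with the opposite sign (0.42, adjusted p = 0.0301). Without the 6 libraries with atrial genes the adjusted p of Tgfbr1 was 0.056 in edgeR. In Mst1Gal3 against Gal3Ko 58 of the 86 were called higher and 13 lower, beside 26.9% and 25.6% of all genes. The counts were 63 and 6 with library totals, and 55 and 11 without the 6 libraries. With library totals 9303 of all genes were called and the median of all genes was 0.24, against 0.005 with TMM.

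To see how the members varied between replicates, deviations of log2 CPM from the group mean were correlated over the 26 libraries for the 10 pairs of members, and no pair passed after adjustment. The highest value over all libraries was for Wisp1 and Wisp2 (Pearson's r = 0.39, permutation p = 0.0418, adjusted p = 0.366, Spearman's rho = 0.30, permutation p = 0.146, adjusted p = 0.461). Without the 2 libraries farthest from the median of Wisp1 r was 0.39. For Ctgf and Cyr61 r was 0.35 (permutation p = 0.0792, adjusted p = 0.366) and rho 0.40 (permutation p = 0.0461, adjusted p = 0.461), and r fell to 0.24 without the 2 farthest libraries. The lowest value was for Ctgf and Wisp1, with r = -0.36 (permutation p = 0.11, adjusted p = 0.366) and rho = -0.35 (permutation p = 0.107, adjusted p = 0.461). Their r was -0.28 without the 2 farthest libraries. For Nov and Wisp1 r was 0.23 (permutation p = 0.337, adjusted p = 0.764) and rho 0.30 (permutation p = 0.184, adjusted p = 0.461), and r was 0.47 without the 2 farthest libraries. Within single groups r is given with no test, for wt (n = 6), MstTg (n = 7) and Gal3Ko (n = 8) and not for Mst1Gal3. The pairs below were those with the highest single-group values, and r over so few libraries is imprecise. Ctgf and Cyr61 had 0.81 in MstTg and 0.09 in Gal3Ko, Nov and Wisp1 0.78 in MstTg and -0.31 in Gal3Ko, Cyr61 and Wisp1 0.73 in Gal3Ko and -0.10 in wt, and Wisp1 and Wisp2 0.73 in wt and -0.10 in MstTg.

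The genes most like each member in these deviations, among 12014 genes with at least 1 CPM on average, are given as a description: they were picked as the highest of a long search, share the libraries, and carry no test. Over the 5 genes of each member Spearman's rho was 0.48 to 0.84, and r without the 2 libraries farthest from the member's median 0.39 to 0.84. For Ctgf they were Maml1, a Notch coactivator (r = 0.83), Esyt1 (0.82), Ppp1r13b (0.79), Vps51 (0.79) and Spry1, an antagonist of receptor kinase signalling (0.79). For Cyr61 they included the muscle gene Dusp27 (0.84), Xirp1 of the intercalated disc (0.82), the AP-1 subunit Jun (0.77) and Tmem214 (0.74). For Wisp1 they were Arhgap32 (0.74), the co-receptor Nrp1 (0.71), Eml6 (0.65), Leprot (0.61) and Camk1d (0.60).

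For Wisp2 they were cytoglobin Cygb (0.83), Ephx1 (0.82), Lrrn4cl (0.76) and the clock-linked transcription factors Bhlhe40 (0.74) and Dbp (0.74). For Nov they were the integrin subunit Itga8 (0.75), the neurotrophin receptor Ntrk3 (0.67), the glypican Gpc3 (0.63), Pkhd1l1 (0.63) and the smooth muscle channel subunit Kcnmb1 (0.62). No gene appeared among the 5 of more than 1 member.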

How the data were processed

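RNA of the left ventricle was sequenced from 26 libraries in 4 groups, which were taken from the sample titles. Per the labels' protocols, total RNA from Trizol homogenates was purified, freed of ribosomal RNA and turned into directional libraries. The submitters' processing notes list STAR and featureCounts with the build GRCm38, beside bcl2fastq 2.19.1.403. Strand setting, annotation release and the treatment of multi-mapped reads were not stated there, and reads shared with near-identical copies could not be checked. The authors deposited raw read counts, whole numbers per gene with no normalization, for 15249 genes. The lowest mean count of a gene was 10.0.

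Counts were scaled by TMM and tested with edgeR 4.0.16 (R 4.3.3) in 1 quasi-likelihood fit of a mean per group over the 26 libraries (robust, two-sided, 22 residual degrees of freedom). The filter filterByExpr removed 0 genes. A gene was called at a Benjamini-Hochberg adjusted p under 0.05 over all genes. CPM are TMM-scaled, RPKM divide CPM by the exon length in GENCODE M21 (15200 of 15249 identifiers found), and log2 CPM used a prior count of 0.5. The test gives no SE, so each SE is the absolute log2 fold change divided by the square root of the F statistic. The 95% intervals take that SE and a t quantile at 22 degrees of freedom. Both are approximations. Wisp1 in wt rests on 14 to 25 reads per library. The labels name no molecular identifiers, so reads copied by PCR may count a molecule more than once. Correlations used 100000 permutations of deviations within groups. The procedure was tested on simulated data. Replicates were compared, and no pair came closer than a chi-square of 4.9 per degree of freedom, so none was merged. Alternatives were library totals, RLE factors, mitochondrial counts left out, other filters, DESeq2 1.42.0, limma-voom (limma 3.58.1), the compared groups alone, a replicate block and each replicate left out. Leaving out 6 libraries with atrial genes, and other settings for the gene lists, were added after seeing the data. The labels give no batch.

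The members and gene lists were chosen with earlier results of these data known. Named were every member, up to 4 genes per list with the smallest p in MstTg against wt, list genes called in Mst1Gal3 against MstTg or in the interaction, and the 5 genes most like each member, of which 1 is not reported here. List genes that fell between wt and MstTg or changed with the scaling, where outside that rule, were named after their values were seen.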

Additional observations from a re-analysis of the deposited data

Results flagged for a closer look

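The response of Wisp1 to Mst-1 differed between the galectin-3 genotypes by a test of that difference, with an interaction of -1.69 on the log2 scale (edgeR). Its means were 0.902 CPM in wt, 10.1 in MstTg, 1.54 in Gal3Ko and 5.39 in Mst1Gal3.

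In 4 of the 20 combinations of member and group, 1 library lay apart from the others by Dixon's criterion, which chance alone meets in about 1 of 20. Cyr61 was 249.6 CPM in Mst1Gal3 replicate 2, where the others had 141 to 165. Nov was 4.43 CPM in MstTg replicate 4 and 5.69 CPM in Gal3Ko replicate 6, and Wisp2 was 9.18 CPM in wt replicate 4.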

How the results depend on the processing

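The 18 member differences that were called kept their direction and their call in 468 values with a replicate left out and 179 under other settings. Wisp1's interaction ran from -1.87 to -1.57 over left-out replicates. In Gal3Ko against wt the number of members called was 0 in edgeR and 1 with DESeq2, and 0 to 1 over left-out replicates: Wisp1 passed without Gal3Ko replicate 6, Gal3Ko replicate 7, Mst1Gal3 replicate 3 or wt replicate 4 (adjusted p = 0.0416, 0.0406, 0.0232 and 0.0405). In Mst1Gal3 against MstTg it was 1 to 2. Reversed values were all among members that did not pass, and the cause was not tested. Nov in MstTg against wt was 0.0931 with library totals and 0.0048 with limma-voom. Nov in MstTg against Gal3Ko was 0.0899 with library totals and -0.45 to 0.0367 over left-out replicates. Leaving out replicates gave Nov -0.22 to 0.14 in Gal3Ko against wt (-0.22 without Gal3Ko replicate 6, -0.0014 without wt replicate 5), -0.0914 to 0.51 in Mst1Gal3 against Gal3Ko, -0.045 to 0.51 in Mst1Gal3 against wt, and Ctgf -0.22 to 0.0027 in Gal3Ko against wt. Without the 6 atrial-gene libraries Cyr61 was -0.0161 in Gal3Ko against wt. The correlation of Ctgf and Nov was 0.0005 with library totals.

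Of all genes, 54 were called in Gal3Ko against wt, 89 with DESeq2, and 33 with the compared groups alone and without the 6 libraries. In the interaction 100 were called, 195 with DESeq2, 51 with the replicate block, and 52 to 189 over left-out replicates. In Mst1Gal3 against MstTg 746 were called, and 469 (without Mst1Gal3 replicate 1) to 1040 (without MstTg replicate 5) over left-out replicates. The replicate block left the number of members called as it was in each of the 7 comparisons, and gave Wisp1 an interaction of -1.75 (adjusted p = 0.000193). Whether replicate numbers pair the libraries was not tested. Over 34 pairs with the same number the correlation of deviations was -0.28 to 0.23 and 11 exceeded 0.1. Their median was 0.007, against 0 for pairs with different numbers, and 7 of 26 libraries correlated best with their own number. Wisp1 and Nov, with 14 to 25 and 45 to 69 reads per library in wt, are the members that depth limits most.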

Other observations

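Between MstTg libraries Cyr61 fell into a lower set of 108 to 115 CPM and a higher set of 149 to 159, with no library between them, and the labels give no batch.

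The antisense gene Gm15270 had 25 to 55 counts in wt, 51 to 117 in MstTg, 19 to 58 in Gal3Ko and 69 to 98 in Mst1Gal3, so every Mst1Gal3 library had more of its counts than any library without the transgene.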
